A study of Gallus gallus with 5 samples.

Results

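The genes described here are those of glucose uptake, glycolysis, the pentose phosphate pathway, the pyruvate dehydrogenase step and the citrate cycle, with the cytosolic partners of some citrate cycle enzymes. They were chosen by name from a list of 45 genes. Of these, 36 had at least 1 probe set carrying their symbol alone in the annotation of the array, which gave 75 of the 38535 probe sets. The other 9 (ALDOA, PGK1, SLC2A3, RPE, PDHA1, TKT, PGLS, CS and PKM) had none under these symbols and were not analysed here as members. Of the 75 probe sets, 4 were Affymetrix control probe sets for GAPDH and stayed out of the tests, and 71 were used.

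Glycolysis splits glucose into pyruvate in the cytosol, and lactate dehydrogenase turns pyruvate into lactate and back. The pentose phosphate pathway branches off after the first step and makes NADPH and the ribose of nucleotides, while pyruvate dehydrogenase passes pyruvate into the citrate cycle of the mitochondria. Fast-growing lymphoid lines are known for high glucose use and lactate release, and several of these enzymes exist as alternative forms encoded by separate genes.

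The study measured total RNA of DT40 cells, a B cell line from a chicken bursal lymphoma, on 5 Affymetrix arrays. Wild-type cells (WT) were on 2 arrays. The H1L array was labelled as a deletion mutant of that linker histone variant, and the 2 H1R arrays likewise for the variant H1R; all cells were growing exponentially. Linker histones sit on the DNA where it enters and leaves the nucleosome, and the study looked at what single variants do to gene expression. The labels give no clone, no agent and no separate culture for the replicates, so the p-values reflect just the spread among these arrays, possibly a technical one. In such bulk RNA, fewer cells of a type and less RNA per cell cannot be told apart. A date code in the labels ties replicate 1 of WT to replicate 1 of H1R, and replicate 2 of both to the H1L array.

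Median signals lay between 19.3 and 22.4 on the 5 arrays. A background limit was set for each array as the highest signal of 23 control probe sets that match no chicken RNA, and it lay between 18 and 33.6. For actin, the signal ratio of the 3' over the 5' control was 2.81 and 3.87 on the first date (WT, H1R) and between 2.01 and 2.25 on the second, and that of the GAPDH controls was between 1 and 1.09 on all arrays. All 8 measured B cell genes of a list of 12 lay above the limit on every array, but not at even levels. Their summed signals were 10155.3 and 21698.1 in WT, 16058.2 on the H1L array, and 15710 and 16666.3 in H1R. IGLL1 read 2282.5 and 11330 in WT. CD79B read 3263.8 and 3744.7 in WT, 2021.7 on the H1L array and 1216.1 and 1347.6 in H1R. TNFRSF13B was also lower and PAX5 higher on both H1R arrays than in WT, and the others overlapped. Of 7 measured T cell genes 1 did, CD3D, and CD4, LCK and ZAP70 lay at or below the limit on every array. Summed signals of the T cell list were 2500.3 and 4208 in WT, 1988 on the H1L array, and 1303.6 and 769.6 in H1R. CD3D made up most of these sums. Those of the fibroblast list (1 of 7 above the limit everywhere, 3 nowhere) were 146.6 and 136.4, 215, and 523.6 and 655.4, and in H1R most of it was MMP2 and COL1A2. Of 5 measured genes each, 2 of the myeloid list and 0 of the erythroid list lay above the limit on every array, with sums from 1446.8 to 2445.6 and from 60.3 to 117.1. The part of such cells in the differences below was not tested. HIST1H111L gave 1320 and 2034.8 in WT, 2295.3 on the H1L array and 981.8 and 2372 in H1R. HIST1H111R gave 36.1 and 39.4, 42.2, and 28.9 and 7. The labels do not equate these genes with the deleted variants, so these probe sets check nothing and all directions rest on the labels.

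Most of the pathway was detected. Of the 71 probe sets, 57 lay above the background limit on all 5 arrays, 9 on some and 5 on none. Of the 36 genes, 33 had a probe set above the limit on every array. The exceptions were PFKM, the muscle form of phosphofructokinase, ENO2, the neuronal form of enolase, and DLAT, the acetyltransferase of pyruvate dehydrogenase. ENO2 read 43.5 and 5.6 in WT, 18.1 on the H1L array and 30.4 and 30.7 in H1R. The brighter PFKM probe set read 13.7 and 27.4 in WT, 27.7, and 29.3 and 42.7. For DLAT the brighter probe set read 20.5 and 53.5 in WT, 46.5, and 42.5 and 72. Each of the 3 lay at or below the limit on at least 1 array, whereas PFKP and ENO1, other forms of the first 2 enzymes, lay far above it in their bright probe sets.

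After a filter on dim probe sets, 66 of the 71 were tested in a fit over 23053 probe sets, and every one of the 36 genes was among them. In H1R against WT, 0 of the 66 passed (limma, Benjamini-Hochberg adjusted p, threshold 0.05), where 1.17% of all probe sets did. The lowest adjusted p was 0.1. At an unadjusted p under 0.05, 11 of the 66 differed (16.7%, against 10.2% of all probe sets). They belonged to 7 genes, since probe sets of 1 gene are not independent: 8 were higher in H1R (background 6.14%) and 3 lower (background 4.09%). The count of 11 moved in both directions when 1 WT or H1R array was left out, which leaves 1 array in that group. A difference of at least 1 log2 unit was found in 5 (7.58%, against 9.2% of all). The median log2 difference was 0.02 over the 66 and 0.09 over all probe sets tested. A fit with the date as block, which the shared date codes allow, called 5 probe sets of 5 genes (7.58%, against 3.7% of all). It leaves 1 residual degree of freedom beside 8.32 prior ones (2 and 6.04 without the block). The p-values of both fits, here and below, thus rest mostly on a spread borrowed from the other probe sets, more so with the block. By the fit with the block, 1 probe set each of HK1, GPI and SUCLG2 was higher in H1R (3, background 2.16%). In the same fit 1 each of SLC2A1 and IDH2 was lower (2, background 1.54%). For HK1, GPI, SUCLG2 and IDH2 the other probe sets of the gene did not pass.

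On the array labelled H1L, 0 of the 66 passed against WT with limma (0.2% of all probe sets did), with or without the date as block (0.508% with it). At an unadjusted p under 0.05, 0 were higher (background 2.18%) and 6 were lower (background 4.72%), from the genes SLC2A1, ENO1, PGD, IDH3A and TALDO1. Together that was 9.09%, against 6.89% of all. The count was lower or the same when 1 WT or H1R array was left out, which leaves 1 array in that group. The H1L array lay below both WT arrays in 31 of the 66 (47%, against 39.1% of all) and above both in 9 (13.6%, against 27.5%). Only 2 differed by at least 1 log2 unit (3.03%, against 10.4%), SLC2A1 and a dim TALDO1 probe set. The latter lay below the background limit on the H1L array, and the 2 bright TALDO1 probe sets differed by -0.28 and -0.23. The median log2 difference was -0.10 over the 66 and -0.05 over all probe sets tested. These tests rest on 1 array and assume that it varies like the others. Both comparisons share the WT arrays.

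**Figure D1:**
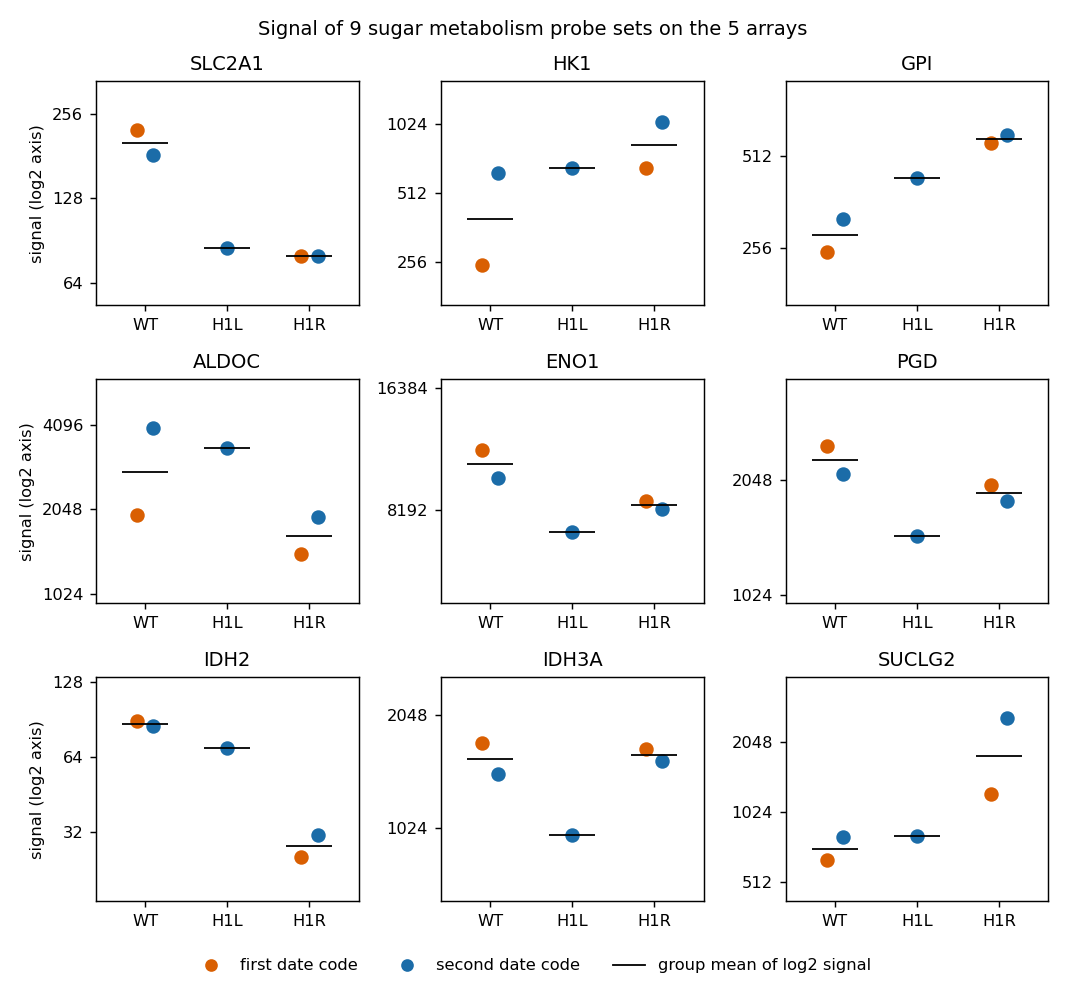
Signal (log2 axis) of 1 probe set each of 9 genes on the 5 arrays, coloured by date code, with a line at the group mean of the log2 signal. SLC2A1 read 223 and 182.4 in WT and 79.7 to 85.1 on the 3 arrays of deletion mutants, while the 2 WT arrays of HK1 and ALDOC lay far apart.

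Among the transporters, SLC2A1, the main glucose carrier of proliferating cells, had the clearest difference. Its probe set read 223 and 182.4 in WT, 85.1 on the H1L array and 79.7 and 80 in H1R. Both H1R arrays and the H1L array lay below both WT arrays, and the 2 H1R arrays were almost equal. The log2 difference of H1R against WT was -1.27 ± 0.31 (SE, n = 2 arrays each), with a limma adjusted p of 0.14, and 0.027 with the date as block. Within the dates it was -1.42 on the first and -1.13 on the second. On the array labelled H1L it was -1.19 ± 0.38 (limma adjusted p = 0.55). SLC16A1, which carries lactate and pyruvate across the plasma membrane, was measured by 4 probe sets. The brightest read 722.6 and 1320.9 in WT, 783.9, and 626.8 and 941.7 in H1R. In all 4 the groups overlapped, with log2 differences of H1R against WT from -0.54 to -0.08.

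In upper glycolysis, from glucose to the triose phosphates, 8 of 14 probe sets lay above both WT arrays on both H1R arrays and 2 lay below both. The shares of all probe sets were 24.9% and 14.5%. Over all 66 probe sets of the genes described here, 14 lay above (21.2%) and 12 below (18.2%). The 8 were the 3 probe sets each of GPI and HK1, with 1 each of PFKM and TPI1. That of PFKM was dim, and H1R cleared WT only just in TPI1. HK1, a hexokinase that commits glucose to the cell, read 249.8 and 622.8 in WT, 658.4 on the H1L array and 660.3 and 1045.8 in H1R in its brightest probe set. The WT arrays of the 2 dates thus differed more from each other (1.30 on the log2 scale) than WT and H1R did on average. The difference of H1R against WT was 1.06 ± 0.45 (limma adjusted p = 0.47, and 0.034 with the date as block). It was 1.38 within the first date and 0.74 within the second. Without replicate 1 of WT the difference was 0.41, and without replicate 2 of WT 1.71. The other 2 probe sets gave 0.92 ± 0.38 and 0.66 ± 0.37 and did not pass with the block (limma adjusted p = 0.085 and 0.18).

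GPI, which turns glucose 6-phosphate into fructose 6-phosphate, was higher in H1R in all 3 of its probe sets. The dimmest read 248.7 and 318.3 in WT, 433.1 on the H1L array and 562.6 and 597.7 in H1R. Another read 2452.4 and 2863.9 in WT, 3122, and 3832 and 4016.1. The brightest read 5138.1 and 4806.7, 5170.2, and 7154.2 and 6555.2. In each, H1R lay above every other array and H1L above both WT arrays. Log2 differences of H1R against WT were 1.03 ± 0.29, 0.56 ± 0.19 and 0.46 ± 0.16, with limma adjusted p-values of 0.22, 0.34 and 0.36. With the date as block the first passed (0.033) and the others did not (0.078 and 0.1).

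ALDOC, an aldolase that splits fructose 1,6-bisphosphate, went the other way. It read 1950.4 and 3983.3 in WT, 3386 on the H1L array and 1416.8 and 1921.3 in H1R. Both H1R arrays lay below both WT arrays, but the higher of them only just. The log2 difference of H1R against WT was -0.75 ± 0.34 (limma adjusted p = 0.52), and that of H1L against H1R was 1.03 ± 0.42 (limma adjusted p = 0.89). HK2, PFKL and the 2 brighter PFKP probe sets overlapped between WT and H1R, with log2 differences from -0.13 to 0.17. TPI1, which interconverts the trioses, read 4025.6 and 4647 in WT, 4074.2, and 4675.7 and 5118.5 in H1R. That difference was 0.18 ± 0.18.

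In lower glycolysis, from the trioses to pyruvate, ENO1, the enolase that makes phosphoenolpyruvate, was lower in both deletions in both of its probe sets. The brighter read 11488.6 and 9798.9 in WT, 7210.7 on the H1L array and 8615.2 and 8220.8 in H1R. The other read 8012.8 and 6794.6, 4687.7, and 5109.8 and 5539. All 3 arrays of deletion mutants lay below both WT arrays. Against WT, H1L differed by -0.56 ± 0.19 and -0.65 ± 0.21 (limma adjusted p = 0.57 and 0.56) and H1R by -0.33 ± 0.15 and -0.47 ± 0.17 (0.52 and 0.37). GAPDH, often used as a reference gene, was steadier. One of its 2 tested probe sets read 8892.3 and 9553.8 in WT, 7666.1 on the H1L array and 7613.4 and 9453 in H1R. Both gave -0.12 for H1R against WT, and -0.27 ± 0.20 and -0.21 ± 0.19 for H1L against WT. The 4 control probe sets for GAPDH read between 6929.1 and 11137.1, and H1L lay below both WT arrays in each. PGAM1, the mutase before enolase, read 5071.8 and 6175.3 in WT, 5309, and 4576.8 and 6254.8, with overlap.

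Both lactate dehydrogenase genes were detected and overlapped between WT and H1R. LDHA read 2965.7 and 4199.4 in WT, 3705.9, and 3684.6 and 4348.4 in H1R, a difference of 0.18 ± 0.23. LDHB read 7786.1 and 8700 in WT, 7282, and 8218.2 and 8578.2, a difference of 0.03 ± 0.15.

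PDK1, a kinase that inhibits pyruvate dehydrogenase, read higher in H1R. Its brighter probe set read 1624.7 and 1602.9 in WT, 1838.8 on the H1L array and 2223.6 and 2734.7 in H1R. The other read 598 and 563.2, 683.4, and 714 and 992.8. In both the order was WT, H1L, H1R without overlap. The log2 differences of H1R against WT were 0.61 ± 0.22 and 0.53 ± 0.28 (limma adjusted p = 0.37 and 0.61, and 0.093 and 0.25 with the date as block). Among the subunits of the complex, the brighter DLAT probe set, given above, differed by 0.63 ± 0.47 with overlap (0.87 on the first date and 0.39 on the second). DLD, its dihydrolipoamide dehydrogenase, had 4 probe sets with differences of H1R against WT from -0.20 to -0.00, and from -0.49 to -0.25 for H1L against WT, where H1L lay below both WT arrays in all 4. PDHB, a subunit of the decarboxylase, read 1528.1 and 1129.5 in WT, 997.2 on the H1L array and 1066.3 and 1775.8 in H1R. It was lower in H1R on the first date and higher on the second.

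**Figure D2:**
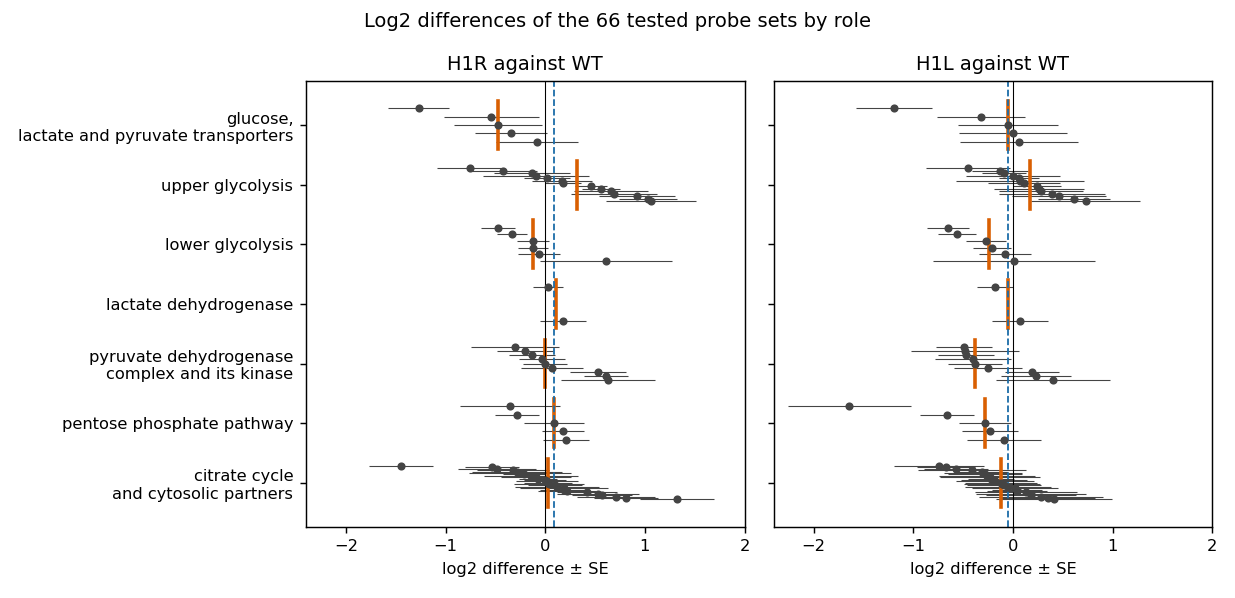
Log2 difference ± SE of the 66 tested probe sets against WT, by role in the pathway, with the median of each role (orange) and of all 23053 probe sets (dashed). In H1R the median of upper glycolysis was 0.32 and that of the transporters -0.47, and the other roles lay between -0.12 and 0.11. The medians are over probe sets: 4 of the 5 for transporters are of SLC16A1, where WT and H1R overlapped. GPI and HK1 have 3 each of the 14 in upper glycolysis.

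In the pentose phosphate pathway the signals of PGD, a dehydrogenase that makes NADPH, were 2513.9 and 2120.2 in WT, 1456.7 on the H1L array and 1985.2 and 1808.9 in H1R. All 3 arrays of deletion mutants lay below WT, and H1L was the lowest (-0.66 ± 0.27, limma adjusted p = 0.71). H1R differed by -0.28 ± 0.22. TALDO1, the transaldolase of the reversible branch, read 2838.5 and 3354.8 in WT, 2535.7, and 3869.6 and 3178.5 in H1R in its brightest probe set. WT and H1R overlapped there. A dim TALDO1 probe set read 21.1 and 22.2 in WT, 2.9 on the H1L array and 18.2 and 13.4 in H1R. It lay at or below the limit on 3 of 5 arrays, and no fold is given for it. RPIA, the ribose phosphate isomerase, read 455.3 and 668.2, 518.4, and 597.8 and 579.1, with overlap.

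In the citrate cycle the 2 probe sets of IDH2, the mitochondrial isocitrate dehydrogenase that makes NADPH, read lower in H1R. The dimmer read 89.2 and 85 in WT, 69.7 on the H1L array and 25.3 and 31.2 in H1R. Replicate 2 of H1R was below its background limit of 33.6 and replicate 1 above its limit of 18. The difference of H1R against WT was -1.45 ± 0.32 (limma adjusted p = 0.1, and 0.029 with the date as block), -1.60 on the first date and -1.29 on the second. It was the lowest of the 66 adjusted p-values, and it differed from H1L by 1.15 ± 0.39 (H1L against H1R, limma adjusted p = 0.87). The brighter probe set read 1042.8 and 865.6 in WT, 637.6, and 686.5 and 627.6, a difference of -0.53 ± 0.27 (limma adjusted p = 0.57, and 0.2 with the block). There H1L was as low as H1R. IDH1, the cytosolic form, read 335.8 and 312.8 in WT, 304.7 on the H1L array and 555 and 421.6 in H1R. Here H1R lay above the other 3 arrays (0.57 ± 0.30, limma adjusted p = 0.6).

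IDH3A, a subunit of the NAD-dependent isocitrate dehydrogenase, was lowest on the H1L array. Its bright probe set read 1716.7 and 1424.3 in WT, 983.1 on that array and 1655.5 and 1540.1 in H1R. The difference was -0.67 ± 0.29 against WT and -0.70 ± 0.29 against H1R (limma adjusted p = 0.72 and 0.89). WT and H1R overlapped. The dim one read 35.9 and 53 in WT, 23.7, and 35.7 and 32.2. IDH3B, another subunit of that enzyme, had no array of H1L outside the WT range in either of its 2 probe sets.

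SUCLG2, the subunit of succinyl-CoA ligase that works with GDP, had 4 probe sets that did not agree in size. One read 635.9 and 805 in WT, 809.6 on the H1L array and 1228.4 and 2610 in H1R. Its difference of H1R against WT was 1.32 ± 0.37 (limma adjusted p = 0.21, and 0.01 with the date as block), 0.94 on the first date and 1.69 on the second. Without replicate 2 of H1R it was 0.77. A second read 742.1 and 663.2 in WT, 619.3, and 939.2 and 1625.7, a difference of 0.81 ± 0.32. The brightest read 1459.7 and 1371.9, 1240.2, and 1233.9 and 1862, with overlap, and the dimmest 113.4 and 99.4, 89.4, and 105.6 and 228.5. Replicate 2 of H1R was the highest array in all 4. With the block the other 3 did not pass (limma adjusted p = 0.12, 0.87 and 0.48 in this order). SUCLA2, the subunit that works with ADP, had differences of 0.22 ± 0.29 and 0.02 ± 0.31. SUCLG1, the subunit common to both forms, gave 0.42 ± 0.30 in its bright probe set, with H1R above WT.

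The remaining genes of the cycle overlapped between WT and H1R in their bright probe sets. These were ACO1, the cytosolic aconitase that also binds iron-responsive RNA, DLST and OGDH of the oxoglutarate dehydrogenase complex, FH, the fumarase, and MDH1 and MDH2, the cytosolic and mitochondrial malate dehydrogenases. ACO1 read 347.9 and 723.8 in WT, 641.9, and 709 and 966.4 in H1R, a difference of 0.71 ± 0.39. FH read 2100.8 and 2958.2, 2565.4, and 2562.4 and 3170.7.

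Arrays of the same group differed in several of these genes. In WT, 9 of the 66 probe sets differed by at least 1 log2 unit between the dates (13.6%, against 12% of all probe sets), and 8 of these were higher on the second. In H1R, 7 of the 66 did so (10.6%, against 13.9%), each higher on the second. Most such differences over all probe sets were also higher on the second date, 1916 of 2776 in WT and 2357 of 3196 in H1R. OGDH read 59.7 and 136.3 in WT and 57.4 and 116.2 in H1R, and PFKL read 69.4 and 148.2 in WT and 56.8 and 157.5 in H1R. In these 2 probe sets the dates lay further apart than WT and H1R did within a date. The actin ratios given above differed between the dates as well, and the cause was not tested. H1R minus WT had the same sign on both dates in 41 of the 66 (62.1%, against 61% of all). It was at least 1 log2 unit in size with 1 sign on both dates in 2, SLC2A1 and IDH2 (3.03%, against 4.65% of all).

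**Figure D3:**
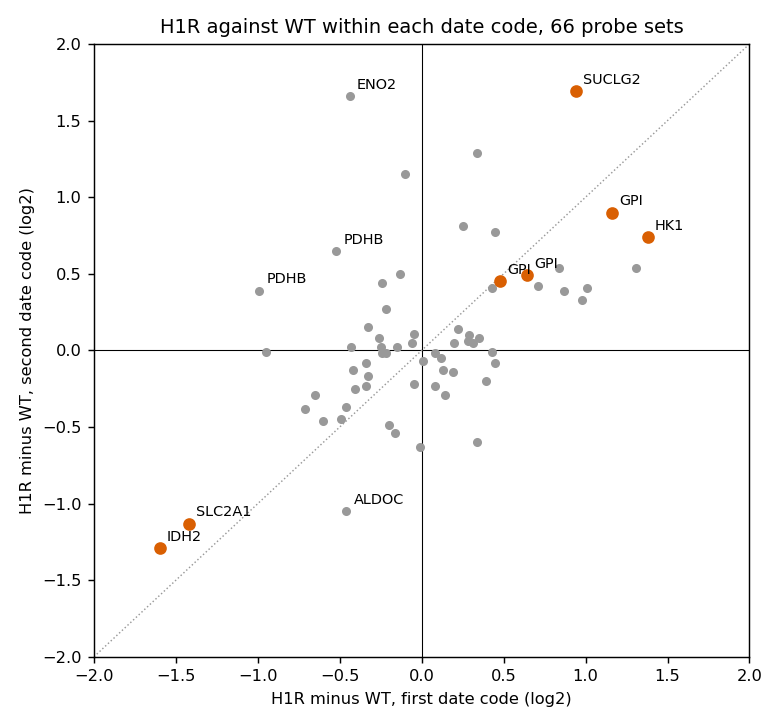
Log2 difference of H1R against WT within the first date (x axis) and within the second (y axis) for the 66 tested probe sets, with the ones named for this comparison in orange and a dotted line at equality. SLC2A1 and IDH2 were lower and GPI, HK1 and SUCLG2 higher on both dates in their named probe sets, while ENO2 and PDHB are among those that changed sign.

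Several of the genes that differed lie on chromosomes whose probe sets as a whole differed between the arrays. Chromosomes were taken by gene number from the RefSeq annotation of the GRCg7b assembly. SLC2A1, ENO1 and PGD all lie on chromosome 21, where the median log2 difference over 296 probe sets was -0.30 for H1R and -0.50 for H1L against WT. It was the lowest of 33 chromosomes in both comparisons. These genes are not close neighbours, with 17 protein-coding genes between ENO1 and PGD and 116 between PGD and SLC2A1. GPI lies on chromosome 11, the highest for H1R (median 0.47 over 469 probe sets) and at 0.31 for H1L. IDH2 and IDH3A lie on chromosome 10, the second lowest in both (-0.17 and -0.34 over 522 probe sets). The medians over all probe sets tested were 0.09 and -0.05. This grouping by chromosome was made after the values were seen.

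With the median of each chromosome removed on each array, the differences of H1R against WT became -0.02 and -0.15 for the 2 ENO1 probe sets and 0.03 for PGD. For the 3 GPI probe sets they became 0.56, 0.10 and -0.00. Larger differences were left for SLC2A1 (-0.96, unadjusted p = 0.0096 by limma) and the dimmer IDH2 probe set (-1.29, unadjusted p = 0.0026 by limma). The same held for ALDOC (-0.74, unadjusted p = 0.015 by limma) and the brightest probe set of HK1 (0.94, unadjusted p = 0.029 by limma). On the array labelled H1L, ENO1 came to -0.12 and -0.22, PGD to -0.23, IDH3A to -0.30 and SLC2A1 to -0.76. None of these passed after adjustment (limma, 0 of the 66 in each comparison). In H1R, ENO1, PGD and the 2 brighter GPI probe sets thus differed from WT about as much as their chromosomes did, and SLC2A1 and the dimmer IDH2 probe set by more.

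Chromosome 12, which holds SUCLG2 and PDHB, differed between the 2 H1R arrays. Without the genes described here, its median difference between replicates 2 and 1 of H1R was 0.55 over 434 probe sets, against 0.17 over all. In WT the same difference was -0.10 on that chromosome and 0.20 over all. For H1R against WT the chromosome's median was -0.25 on the first date and 0.39 on the second. All 6 tested probe sets of SUCLG2 and PDHB read higher in replicate 2 of H1R, by 0.59 to 1.31 on the log2 scale. With chromosome medians removed, the first SUCLG2 probe set kept a difference of 1.22 (unadjusted p = 0.0013, limma adjusted p = 0.07) and the brightest had 0.01. The second kept 0.72 (unadjusted p = 0.0095, limma adjusted p = 0.23).

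**Figure D4:**
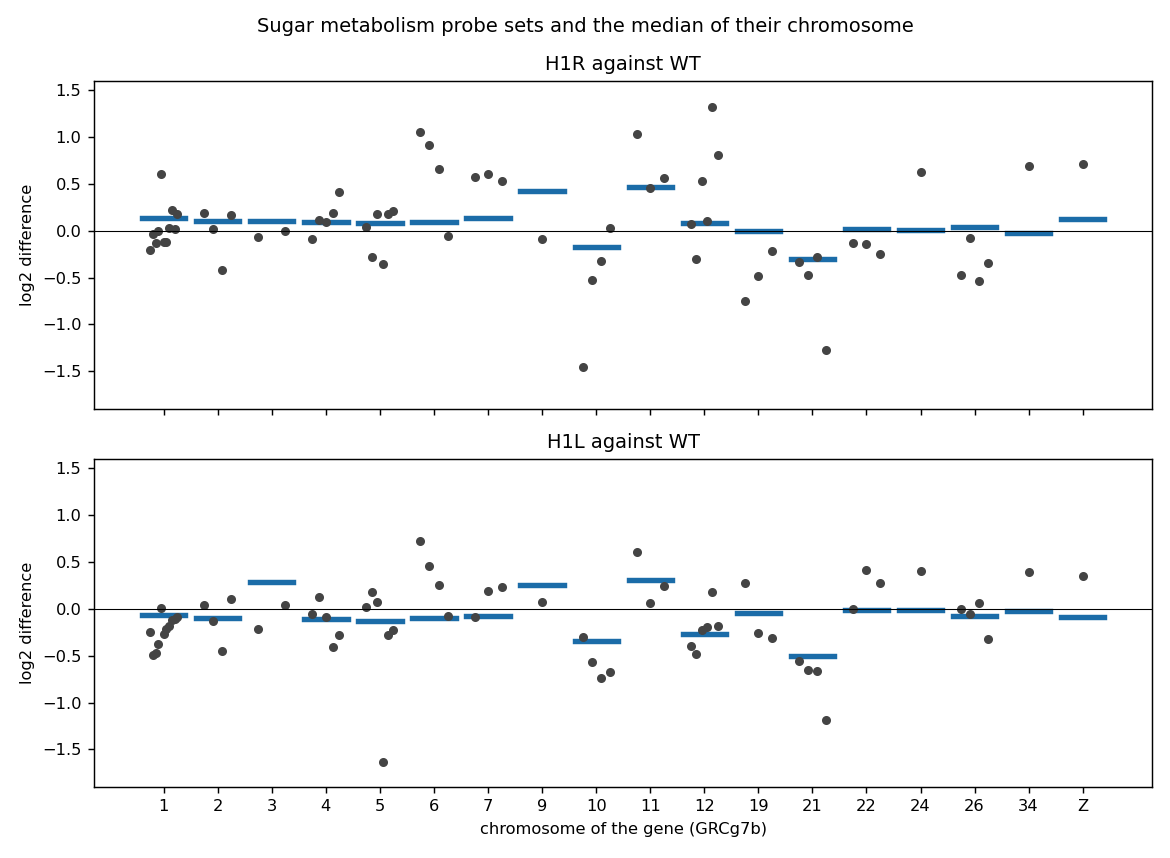
Log2 difference against WT of the 66 tested probe sets (points) by the chromosome of their gene, with the median of all tested probe sets of that chromosome (blue bars). The bars lie lowest on chromosome 21 in both panels, and the 4 probe sets there, of ENO1, PGD and SLC2A1, lie below 0.

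The direct comparison of H1L with H1R called 0 of the 66 (limma, 0.00434% of all probe sets), also with the date as block (0.134% of all). At an unadjusted p under 0.05, 5 differed (7.58%, against 5.54% of all). IDH2 and ALDOC were higher on the H1L array (2, background 1.23%), and IDH3A and 2 probe sets of SUCLG2 lower (3, background 4.31%). The count was lower without replicate 1 of H1R, and also without replicate 2, which leaves 1 array in each group. The H1L array lay below both H1R arrays in 35 of the 66 (53%, against 46% of all) and above both in 5 (7.58%, against 20.7%), and 4 differed by at least 1 log2 unit (6.06%, against 9.11%). The median log2 difference was -0.19 over the 66 and -0.15 over all probe sets. After quantile normalization it was -0.05 over the 66. SLC2A1 did not separate the deletions (0.09 ± 0.38).

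Of 106 other genes of sugar metabolism and its regulators, 63 had tested probe sets, 101 in all. In H1R against WT 1 of these rose (0.99%, where 1.17% of all probe sets passed either way) and 0 fell by limma adjusted p. At an unadjusted p under 0.05, 7 were higher (6.93%, against 6.14% of all) and 3 lower (2.97%, against 4.09%), shares near those of all probe sets. The median was 0.15. The 1 was HKDC1, a hexokinase-like gene. Its probe set read 3.6 and 8.7 in WT, 36.3 on the H1L array and 110.9 and 94.8 in H1R. WT lay below the background limit, so H1R was at least 4.1-fold higher (limma adjusted p = 0.0078) and H1L at least 1.45-fold (0.4). A second tested probe set of HKDC1 read 15.9 and 10.1, 4.5, and 33.4 and 19.5, and did not pass. HKDC1 and HK1 are next to each other on chromosome 6, with 0 protein-coding genes between them in the same annotation. ENO4, a further enolase gene, read 2.2 and 7.5 in WT, 20.4, and 31 and 41.1 in H1R. Its level in H1R was at least 1.43-fold that of WT (limma adjusted p = 0.17). EGLN1, a prolyl hydroxylase that marks HIF1A for breakdown, read 781.1 and 807.6 in WT, 281.6 on the H1L array and 462.6 and 249.1 in H1R. All arrays of deletion mutants lay below WT (H1R -1.21 ± 0.35, limma adjusted p = 0.23, and 0.034 with the date as block). H1L differed by -1.48 ± 0.43 (limma adjusted p = 0.48). The other tested EGLN1 probe set, near the background limit, read 29.4 and 6.7, 26.7, and 0.8 and 22.2. It gave -0.61 ± 0.81 for H1R and 0.63 ± 0.99 for H1L, the opposite sign for H1L. By gene number it lay on chromosome 3, while the brighter one was placed on no chromosome. Whether both read the same gene was not tested.

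PFKFB1, which sets the level of fructose 2,6-bisphosphate, an activator of phosphofructokinase, read 20 and 45.7 in WT, 60.3, and 72.6 and 125.2 in H1R in 1 of its 3 tested probe sets. H1R lay above the other arrays (1.47 ± 0.44, limma adjusted p = 0.25, and 0.025 with the date as block). The other 2 were dimmer and gave 0.45 ± 0.44 and 0.32 ± 0.61. On the array labelled H1L, 0 of the 101 passed (limma, 0.2% of all probe sets did). At an unadjusted p under 0.05, 2 were higher (1.98%, against 2.18% of all) and 6 lower (5.94%, against 4.72%), and the median was -0.06. GALM, a sugar mutarotase, read 32.8 and 40.8 in WT, 105.9 on that array and 58.4 and 109.6 in H1R. ACLY, which splits citrate for lipid synthesis, read 1387.4 and 860 in WT, 506.4, and 507.2 and 673.1. In these probe sets of both genes, all arrays of deletion mutants lay outside the WT range. The H1L array differed from WT by 1.39 ± 0.47 for GALM and -1.10 ± 0.40 for ACLY (limma adjusted p = 0.57 and 0.63), and their other probe sets by 0.96 ± 0.70 and -0.50 ± 0.45.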

How the data were processed

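The authors deposited a linear signal intensity for each probe set. It came from GCOS, per the submitters' processing notes, whose version, scaling target and calls are not given in the sources used here. Trimmed means ran from 119.4 to 152.7, so the scale between arrays is unknown, and values were used as deposited. Precision is limited by the number of arrays. The 96 Affymetrix controls were left out, which left 38439 probe sets, of which 27168 had 1 symbol, 177 several and 11094 none.

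Tests used log2(signal + 6), with the 25th percentile of the signals as pseudocount, which understates differences of dim probe sets. Only those with a mean signal above 13.4, the 40th percentile, were tested. limma 3.58.1 in R 4.3.3 was fitted with 1 term per group over all 5 arrays (eBayes with a trend, 2 residual and 6.04 prior degrees of freedom), with Benjamini-Hochberg adjustment over 23053 probe sets. The procedure was tested on simulated data. Alternatives were scaling, pseudocount, filter, trend, date block, each WT or H1R array left out, 1 probe set a gene and, chosen after seeing the data, chromosome medians removed. The pairing of WT and H1R comes from the date codes in the labels. Deviations of same-numbered arrays correlated at 0.192 across probe sets (0.188 after quantile normalization). Lower bounds use the mean log2 signal of the brighter group and, for the dimmer, the higher of limit and signal on each array.

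The genes and lists were chosen with earlier results of these data known. Full values were given for the 6 lowest unadjusted p-values in each comparison and for differences of at least 1 log2 unit of 1 sign on both dates or against both WT arrays, and for the other genes by their role. Of the further pathway genes, those past the threshold and the 4 lowest p-values against WT were named. A symbol is that of the probe table, and probe sets ending in s or x can read several transcripts.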

Additional observations from a re-analysis of the deposited data

Results flagged for a closer look

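In the second SUCLG2 probe set the deletions lay on opposite sides of WT: H1L (619.3) was below both WT arrays (742.1 and 663.2) and H1R (939.2 and 1625.7) above both. The difference itself was tested in the same fit. H1L against H1R gave a log2 difference of -0.99 ± 0.39, with a limma adjusted p of 0.89, and so did not pass. H1L against WT was -0.18 ± 0.39 (limma adjusted p = 0.98). The median of all tested probe sets on its chromosome, 12, was -0.27 for H1L against WT. With chromosome medians removed, this probe set gave 0.10 for H1L and 0.72 for H1R against WT, so the opposite sides were not kept. In the first SUCLG2 probe set H1L (809.6) was above both WT arrays (635.9 and 805), the higher only just, on the same side as H1R. H1L was below both WT arrays in the brightest (1240.2 against 1459.7 and 1371.9) and the dimmest (89.4 against 113.4 and 99.4). In the brightest and the dimmest, WT and H1R overlapped.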

How the results depend on the processing

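Counts of called probe sets among the 66 stayed at 0 in all 3 comparisons under every alternative except 1. With the date as block 5 passed for H1R against WT, and that block changed no other call of the 66. The median log2 difference of the 66 for H1R against WT was 0.02 with all arrays. It ranged from -0.09 to 0.20 when each WT or H1R array was left out in turn, the highest without replicate 1 of H1R. For H1L against WT it was -0.28 with the date as block, against -0.10 without it. The median over all probe sets tested moved the same way, from -0.0523 to -0.161. The H1L array is on the second date alone, and the block adjusts for the difference between the dates. Over all probe sets tested, the median of the second date minus the first was 0.20 in WT and 0.18 in H1R. What made the dates differ was not tested. With chromosome medians removed, an alternative chosen after the data were seen, the brightest GPI probe set turned to -0.00229, by construction of that alternative relative to its chromosome. For H1L against H1R the median over all probe sets was -0.146 as deposited and -0.00438 after quantile normalization. For H1R against WT it was 0.0899 and 0.0126, and for H1L against WT -0.0523 and 0.0108. All 3 comparisons thus depend on scale. After quantile normalization the median of the 66 was -0.09 for H1R against WT, of the opposite sign, and -0.04 for H1L against WT. The pseudocount (16 or 32), the filter (none, or the 60th percentile), median scaling and 1 probe set a gene moved each median by less than the spread of 0.16 between replicates. Counts at an unadjusted p under 0.05 were less stable. Their shares over all probe sets under each alternative are not given here, so a change in a count may be shared by all probe sets. For H1R against WT the date block raised the share of all probe sets with a limma adjusted p under 0.05 from 1.17% to 3.7%. For H1R against WT (11) they were 4 without the trend, 18 with the date as block and 4 of 36 with 1 probe set a gene. For H1L against WT (6) they were 2 without the trend and 1 with chromosome medians removed. For H1L against H1R (5) they were 3 after quantile normalization, 2 without the trend, 10 with the date as block and 2 of 36 with 1 probe set a gene. Signals near the background limit, as for ENO2, PFKM and DLAT, bound what can be read from them.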

Other observations

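Of the 9 listed genes without a probe set under their own symbol, 4 are given by the RefSeq table as synonyms of genes that have one, and their values stand here without being counted above. PGK2, with the synonym PGK1, a kinase that makes ATP in lower glycolysis, read 4688.8 and 6578.9 in WT, 6024.3 on the H1L array and 5877.6 and 6879.3 in H1R, with overlap. PKLR, with the synonym PKM, a pyruvate kinase, read 5200.8 and 5840.9 in WT, 4666.3, and 4244.1 and 5184.2. All 3 arrays of deletion mutants lay below WT there (H1R against WT -0.23 ± 0.18, limma adjusted p = 0.78). The brighter probe set of SLC2A14, with the synonym SLC2A3, a glucose carrier, read 204.6 and 267 in WT, 149.4, and 201.2 and 170.8. In that probe set the arrays of deletion mutants lay below WT, replicate 1 of H1R only just (H1R -0.33 ± 0.32, limma adjusted p = 0.83, and H1L -0.63 ± 0.39, 0.86). The dimmer probe set read 30.9 and 47.7 in WT, 43.4, and 39.4 and 46, with overlap. Its differences had the opposite sign (H1R 0.13 ± 0.36 and H1L 0.15 ± 0.44). The brightest probe set of PDHA2, with the synonym PDHA1, a subunit of pyruvate dehydrogenase, read 2063.3 and 3572.8 in WT, 2719.8, and 2607.3 and 3887.5, with overlap.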
